A study of Bos taurus with 8 samples.

Results

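The smooth muscle contractile genes are 10 listed genes that encode the actin and myosin filaments of smooth muscle and the proteins that bind them. Members were taken as the transcript clusters of a bovine array whose annotation gives the symbol of a listed gene and no other. By that rule 9 of the 10 genes were measured, with 10 clusters among the 18550 clusters that carry 1 symbol, out of 24415 clusters in all. *ACTA2*, the smooth muscle alpha actin, had no cluster of its own, because the only cluster that lists it also lists *ACTG2*. That shared cluster is described below but not counted.

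Smooth muscle cells shorten when myosin heads pull on thin filaments of actin. Phosphorylation of the regulatory light chain switches the myosin on, while tropomyosin, caldesmon and calponin lie along the actin filament and modulate the contact. Many of these genes are driven by serum response factor (SRF) together with myocardin or the related factors MRTFA and MRTFB. In the ovarian follicle, contractile cells are known mainly from the theca and the vessel walls, which lie outside the avascular granulosa layer.

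Granulosa cells from bovine follicles were cultured without serum in alpha-MEM with FSH, IGF-1 and androstenedione, and all 8 samples shared these conditions. The low oxygen group (LOL 1 to 4) was held at 1% oxygen from day 6 to day 8 of culture, and the normal oxygen group (NOL 1 to 4) stayed at 21%. The cells were frozen after aspiration from small to medium follicles of abattoir ovaries and thawed for plating on collagen. RNA of each sample was hybridised to 1 Affymetrix Bovine Gene ST array, and values are log2 signals. Whether the 4 samples of each group were grown as separate cultures is stated neither in the labels nor in the methods, and the p-values therefore reflect the scatter among these 8 samples, possibly technical only. SE is the standard error of a log2 difference.

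At low oxygen 8 of the 9 measured contractile genes were higher at an adjusted p under 0.05, and 5 of them, *TAGLN*, *ACTG2*, *MYH11*, *CNN1* and *MYL9*, were also more than 2-fold higher. None was lower. Of all 24415 clusters, 20.5% were higher at that adjusted p and 2.22% were also more than 2-fold higher, while 20.5% and 2.65% were lower by the same criteria. The median log2 difference, LOL minus NOL, was 1.06 over the 9 genes and 0.06 over all clusters. In 8 of the 9 genes every LOL array lay above every NOL array, which held for 19.1% of all clusters. *CALD1* was the gene that did not pass. The array measures RNA of the whole culture, so more contractile cells and more contractile RNA per cell cannot be told apart.

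**Figure D1:**
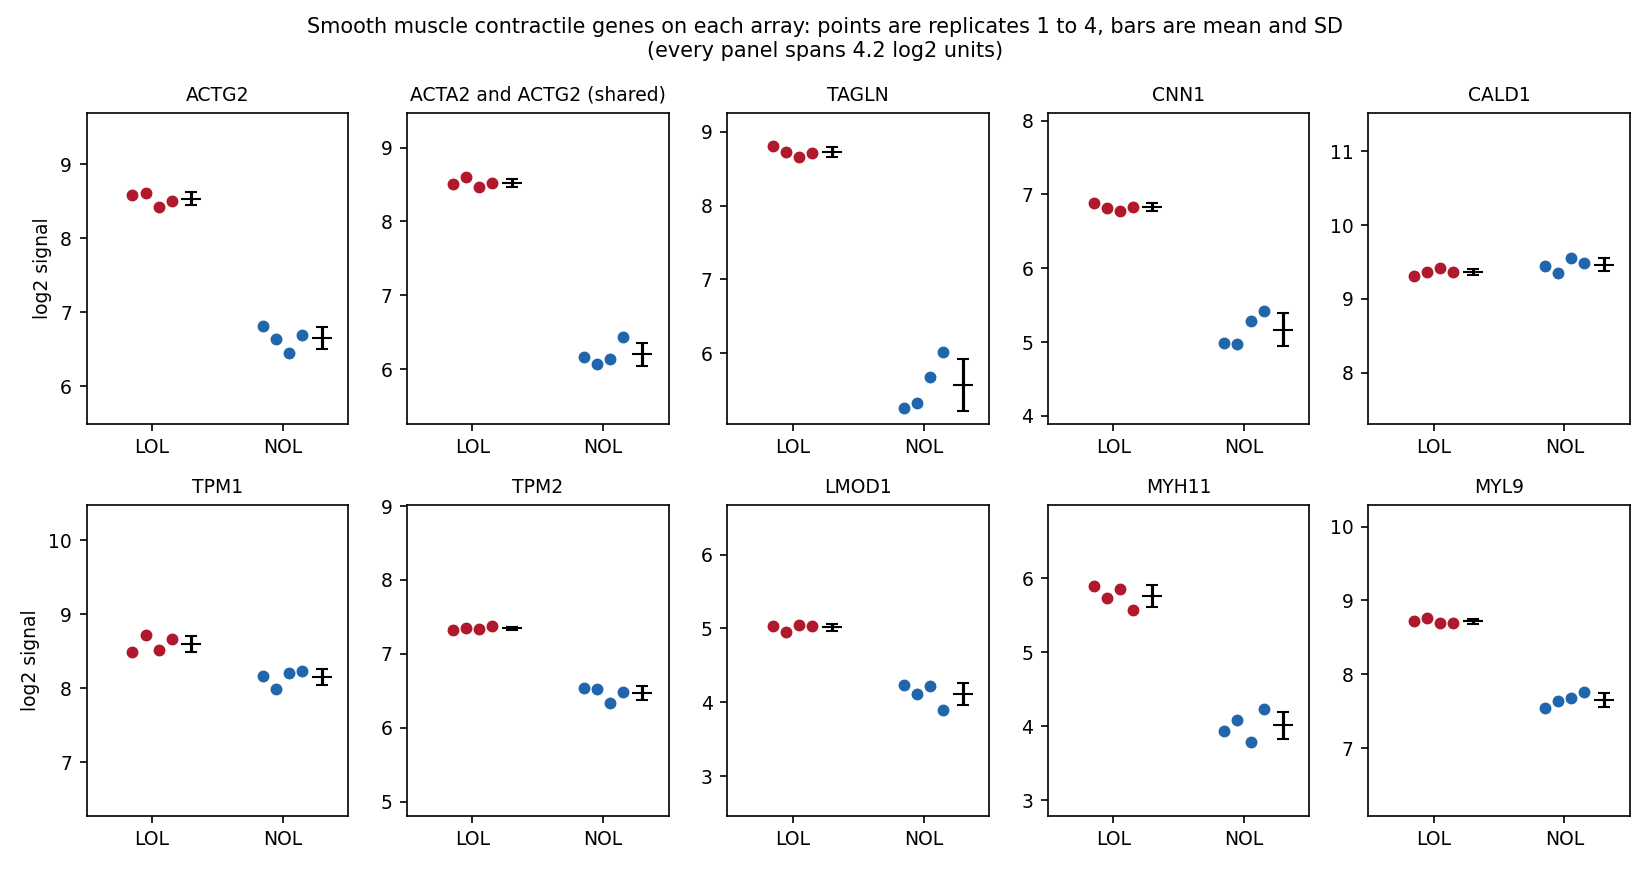
Log2 signal (vertical axis) of 9 contractile genes and of the cluster shared by *ACTA2* and *ACTG2* on the 4 LOL and the 4 NOL arrays; points are arrays and the bars beside them give mean and SD. The groups are farthest apart in *TAGLN*, with means of 8.72 at LOL and 5.57 at NOL, and overlap in *CALD1*.

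*ACTG2* encodes the gamma actin of visceral smooth muscle. Its log2 signal was 8.59, 8.62, 8.42 and 8.51 in LOL 1 to 4, against 6.82, 6.64, 6.45 and 6.69 in NOL 1 to 4. The groups were 1.6 apart at their nearest arrays, several times the spread within either. *ACTG2* was 3.69-fold higher at LOL (log2 SE 0.086, adjusted p = 1.93e-07). The cluster shared by *ACTA2* and *ACTG2* read 8.51, 8.60, 8.47 and 8.52 in LOL 1 to 4, against 6.17, 6.07, 6.14 and 6.43 in NOL 1 to 4. Its log2 difference came to 2.32 (log2 SE 0.083, adjusted p = 4.7e-08). How much of that signal belongs to either actin is not known, and actin genes are close enough in sequence that probes of 1 may also bind RNA of another.

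*TAGLN* encodes transgelin (SM22), an actin-binding protein widely used as an early marker of smooth muscle differentiation. It read 8.81, 8.72, 8.66 and 8.71 in LOL 1 to 4, against 5.26, 5.33, 5.68 and 6.02 in NOL 1 to 4. The LOL arrays lay close together, whereas the NOL arrays were spread, with NOL 4 highest. The gene was 8.89-fold higher at LOL (log2 SE 0.15, adjusted p = 2.26e-07), and its 95% interval, 2.82 to 3.49, lay above that of each of the other 8 genes.

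*CNN1* encodes calponin 1, which binds actin and restrains the myosin ATPase. It read 6.89, 6.82, 6.77 and 6.83 in LOL 1 to 4, against 4.99, 4.97, 5.29 and 5.42 in NOL 1 to 4. NOL 3 and NOL 4 were the higher arrays of their group, as they were for *TAGLN*. The rise was 3.16-fold (log2 SE 0.10, adjusted p = 1.12e-06). *CALD1*, which encodes the actin-binding protein caldesmon and is also expressed in nonmuscle cells, read 9.31, 9.37, 9.42 and 9.36 in LOL 1 to 4, against 9.44, 9.35, 9.56 and 9.49 in NOL 1 to 4. The groups overlapped. Its log2 difference was -0.095 (adjusted p = 0.267), with a 95% interval from -0.24 to 0.048. The signal sums over the transcript forms of the gene, so a shift between the smooth muscle form and the shorter nonmuscle form would not show in it.

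The tropomyosins, coiled proteins that run along the actin groove, rose by less. *TPM2* read 7.32, 7.35, 7.34 and 7.37 in LOL 1 to 4, against 6.54, 6.53, 6.34 and 6.48 in NOL 1 to 4. The groups did not overlap, with SDs of 0.021 in LOL and 0.092 in NOL, and the rise was 1.83-fold (adjusted p = 2.83e-06). *TPM1* had 2 clusters. The brighter one read 8.49, 8.72, 8.52 and 8.67 in LOL 1 to 4, against 8.16, 7.99, 8.21 and 8.23 in NOL 1 to 4. Its log2 difference was 0.45 (log2 SE 0.080, adjusted p = 0.0012), and that of the dimmer cluster was 0.43 (log2 SE 0.067, adjusted p = 0.000576). In both clusters the groups did not overlap, with 0.26 and 0.27 between their nearest arrays. Both genes also make nonmuscle forms, which these clusters do not separate.

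*LMOD1*, leiomodin 1, promotes the growth of actin filaments in smooth muscle. It read 5.03, 4.95, 5.05 and 5.04 in LOL 1 to 4, against 4.23, 4.11, 4.22 and 3.90 in NOL 1 to 4. The lowest NOL array here was NOL 4, which was the highest for *TAGLN*, *CNN1*, *MYH11* and *MYL9*. The gene was 1.87-fold higher at LOL (log2 SE 0.081, adjusted p = 1.18e-05).

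*MYH11* encodes the smooth muscle myosin heavy chain, regarded as the most specific marker of mature smooth muscle. It read 5.90, 5.74, 5.86 and 5.57 in LOL 1 to 4, against 3.94, 4.08, 3.79 and 4.23 in NOL 1 to 4. The rise was 3.38-fold (log2 SE 0.11, adjusted p = 1e-06). *MYL9* encodes the regulatory light chain that is phosphorylated to start contraction. It read 8.72, 8.76, 8.69 and 8.70 in LOL 1 to 4, against 7.54, 7.64, 7.68 and 7.76 in NOL 1 to 4. This was 2.09-fold higher (log2 SE 0.063, adjusted p = 8.73e-07), just past the fold threshold, and with each array centred on its median the log2 difference was 1.00 (0.9975) and the fold no longer over 2. The NOL means of *MYH11* and *LMOD1*, 4.01 and 4.12, lay close to the median of all clusters on the NOL arrays (4.06 to 4.08). The values hold no measure of background, so these 2 folds may be too small.

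By size of the log2 difference the order was *TAGLN* (3.15), *ACTG2* (1.89), *MYH11* (1.76), *CNN1* (1.66), *MYL9* (1.06), *LMOD1* (0.90), *TPM2* (0.87), *TPM1* (0.45) and *CALD1* (-0.095). The 95% intervals of *ACTG2*, *MYH11* and *CNN1* overlapped, with bounds of 1.43 to 2.08 in all. Those of *MYL9*, *LMOD1* and *TPM2* overlapped too, between 0.72 and 1.20. The genes thus fell into steps of *TAGLN*, then 3 genes, then 3 more, with *TPM1* and *CALD1* below them.

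Contractile genes of smooth muscle have close relatives that build the actin cytoskeleton of every cell, and the change was compared between the forms on the same arrays in 10 pairs. In 9 of the 10 pairs the smooth muscle form rose more than its relative, with no overlap between the LOL and NOL arrays in the difference of log2 signals (exact permutation test, two-sided, p = 0.0286 each, the smallest that 4 against 4 arrays allow, adjusted p = 0.0317 over the pairs). *MYH11* and *MYL9* each enter more than 1 pair, and all pairs use the same arrays, so the 9 results are not independent. The widest gap was in the transgelins, where *TAGLN* rose and *TAGLN2* had a lower mean at LOL (log2 difference -0.215), 3.37 apart. The adjusted p of *TAGLN2* was 0.0527, and it lay between 0.0197 and 0.0482 with quantile normalization, median centring, low signals left out or the replicate block. *ACTB*, a cytoplasmic actin, had a log2 difference of 0.165, less than *ACTG2* by 1.72. It passed in the fit as deposited (adjusted p = 0.0344) but not with quantile normalization (0.219), median centring (0.217) or the replicate block (0.0823). *ACTG1*, also a cytoplasmic actin but in no pair, had a log2 difference of 0.185 (adjusted p = 0.0207). It did not pass with median centring (0.124) or the replicate block (0.0532). *MYH9* and *MYH10*, the nonmuscle myosin heavy chains, were 1.41-fold and 1.59-fold higher, less than *MYH11* by 1.26 and 1.09 on the log2 scale.

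For the regulatory light chains the relatives moved apart. *MYL12A* was 1.29-fold higher and *MYL12B* was 1.49-fold lower at LOL (adjusted p = 0.0027 and 0.000319), so that *MYL9* rose more by 0.70 and 1.64 on the log2 scale. *TPM3* fell by 0.50 on the log2 scale (adjusted p = 0.00046) while *TPM2* rose, a difference of 1.37. *LMOD1* rose more than *TMOD3*, a tropomodulin, which caps actin filaments, by 0.60. *CNN2*, a calponin of nonmuscle cells, was itself 2.36-fold higher (adjusted p = 3.25e-06), and *CNN1* exceeded it by 0.42. The pair that did not separate was *TPM1* and *TPM4*, which differed by 0.20 with overlapping arrays (exact permutation test, p = 0.143, adjusted p = 0.143). Of 21 measured nonmuscle and other-muscle relatives, 11 were higher and 2 lower at the adjusted p, with a median log2 difference of 0.21. Over all clusters the shares were 20.5% and 20.5%.

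**Figure D2:**
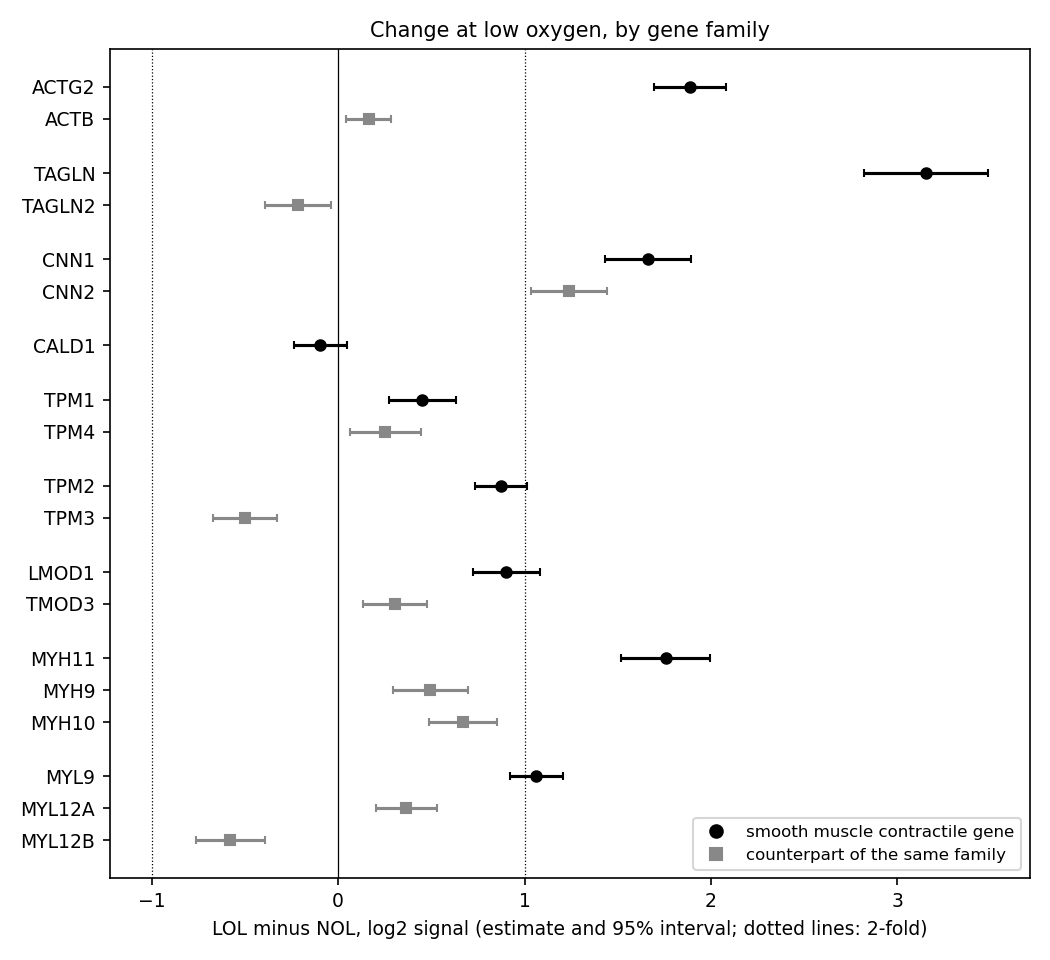
Log2 difference between LOL and NOL (horizontal axis) with its 95% interval for each contractile gene (circles) and its relatives of the same family (squares); dotted lines mark 2-fold. *TAGLN* stands at 3.15 and *TAGLN2* at -0.215, and *CNN1* at 1.66 with *CNN2*, the one relative over 2-fold, at 1.24.

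Of 21 measured genes for the smooth muscle cytoskeleton and its anchoring, 13 rose and none fell at the adjusted p, and 6 were more than 2-fold higher. Over all clusters the shares were 20.5%, 20.5% and 2.22%. The number of these 21 genes over 2-fold was 5 with quantile normalization or with low signals left out, each without *DES*. It was 4 with median centring, without *DES* and *CSRP1*. *PDLIM3*, which ties alpha-actinin to the cytoskeleton, read 5.76, 5.71, 5.97 and 5.68 in LOL 1 to 4, against 4.14, 3.91, 4.12 and 4.36 in NOL 1 to 4, a 3.13-fold rise (adjusted p = 1.11e-06). *FBLN5*, an elastic fibre protein, was 2.69-fold, *ACTN1*, the nonmuscle alpha-actinin 1, 2.41-fold and *TGFB1I1* (HIC-5), a focal adhesion adaptor, 2.11-fold higher, with adjusted p from 9.45e-07 to 2.95e-05. *CSRP1* and *DES*, which encodes desmin of muscle intermediate filaments, were the other 2, with log2 differences of 1.05 and 1.01. The brightest genes that were not called were *ACTN4*, 1.38-fold higher (adjusted p = 0.0014), and *HSPB1*, a small heat shock protein, with a log2 difference of -0.165 (adjusted p = 0.0749, but 0.0224 to 0.0326 and thus lower with median centring, quantile normalization or low signals left out). *SMTN*, smoothelin, and *FLNA*, a filamin, named after their values were seen, did not pass (log2 differences 0.13 and 0.068, adjusted p = 0.152 and 0.493), although *SMTN* did with quantile normalization (0.0271). The median of the list was 0.49.

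The SRF and myocardin factors rose more often than they fell, 12 against 2 of 20 measured, but by small amounts, with a median of 0.28. Of all clusters 20.5% rose and 20.5% fell at the adjusted p, and 2.22% were called higher. *MEF2A*, a transcription factor of muscle and other cells, was 2.09-fold higher (adjusted p = 5.23e-07) and was the one gene of this list called, and its log2 difference under median centring was 1.00, no longer over 2-fold. *SRF* itself read 7.20, 7.08, 7.17 and 7.14 in LOL 1 to 4, against 6.47, 6.66, 6.50 and 6.68 in NOL 1 to 4, a log2 difference of 0.57 (adjusted p = 9.46e-05). *MYOCD*, myocardin, read 5.38, 5.49, 5.42 and 5.46 in LOL 1 to 4, against 5.45, 5.61, 5.56 and 5.49 in NOL 1 to 4, and did not pass (log2 difference -0.09, adjusted p = 0.27). *MRTFA* and *MRTFB* were 0.26 and 0.40 higher on the log2 scale (adjusted p = 0.0083 and 0.000769). *SRF*, *MYOCD*, *MRTFA* and *MRTFB* were chosen from the list for their role. *GATA6* and *SMAD4*, the brightest that were not called, were 1.30-fold and 1.24-fold higher (adjusted p = 0.000615 and 0.0026).

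*MYLK*, the kinase that phosphorylates the regulatory light chain, read 6.44, 6.33, 6.55 and 6.45 in LOL 1 to 4, against 5.81, 5.92, 5.57 and 5.67 in NOL 1 to 4, a log2 difference of 0.70 (adjusted p = 0.000109). It was added for its place in the pathway after its value was seen.

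Of 24 measured genes for smooth muscle calcium handling and receptors, 3 were higher and 8 lower, with a median of -0.015. Over all clusters 20.5% were higher and 20.5% lower. *EDNRA*, an endothelin receptor that contracts smooth muscle, was 2.11-fold higher (adjusted p = 0.000118). *PTGFR*, the prostaglandin F receptor, was 3.21-fold lower (adjusted p = 1.79e-05) and *GUCY1B1*, a subunit of the nitric oxide receptor guanylate cyclase, was 2.13-fold lower (adjusted p = 9.09e-07). *ATP2A2*, the calcium pump of the sarcoplasmic reticulum, and *ITPR2*, a calcium release channel, fell by 0.50 and 0.46 on the log2 scale (adjusted p = 4.01e-05 and 0.000202).

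None of the 27 measured sarcomere genes of skeletal and cardiac muscle was called. Of all clusters only 2.22% were called higher and 2.65% lower. At the adjusted p 13 were higher (8 with median centring) and 1 lower, with a median of 0.21 and no difference beyond 0.59. Over all clusters 20.5% were higher and 20.5% lower. Of the sarcomere clusters 21 had a mean log2 signal under 4. Over all 11792 such clusters of the array the median log2 difference was 0.092, and 13.6% were higher at the adjusted p. The troponin *TNNI3* was 1.24-fold lower (adjusted p = 0.0161) and *TCAP*, telethonin, 1.35-fold higher (adjusted p = 0.0033).

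**Figure D3:**
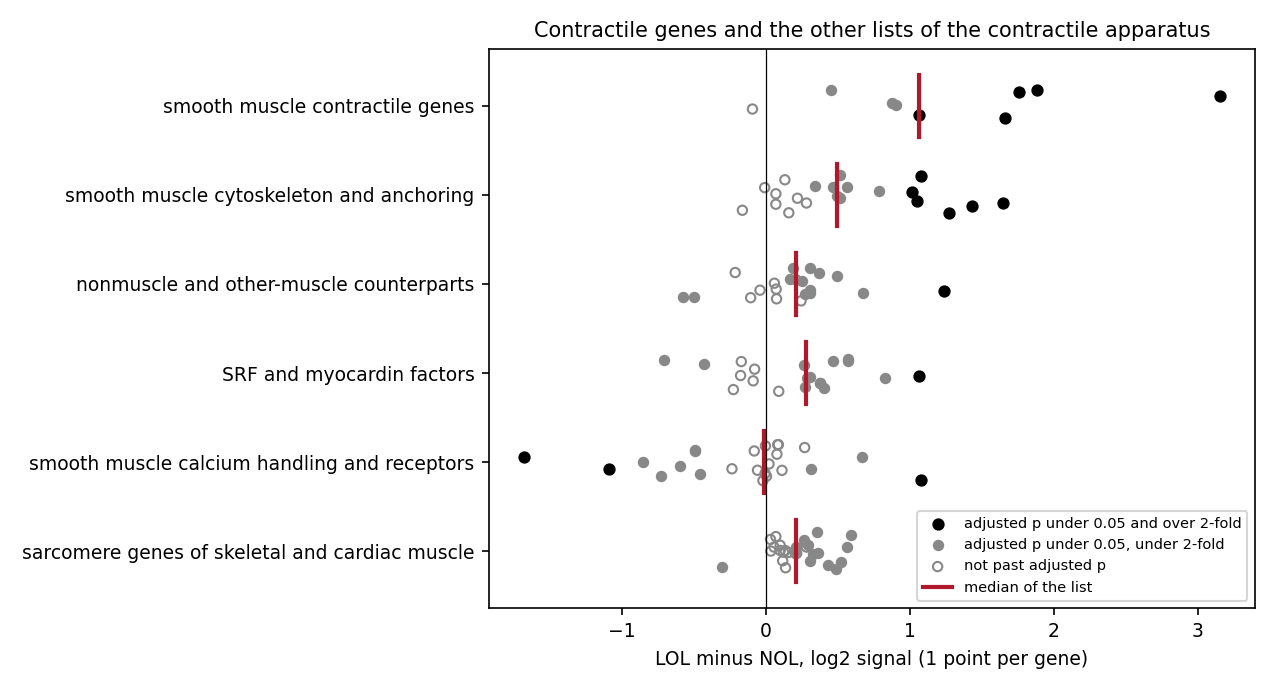
Log2 difference between LOL and NOL (horizontal axis) of each measured gene of the contractile genes and of 5 further lists; fill marks the test passed and vertical bars the list medians. The median is 1.06 for the contractile genes, 0.49 for the cytoskeleton and anchoring list and between -0.015 and 0.28 for the other lists.

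Markers of other cells that a follicle preparation could hold were read on the same arrays. For comparison with the counts, 20.5% of all clusters were higher and 20.5% lower at the adjusted p. Of all clusters 2.22% were called higher and 2.65% called lower. Of 8 pericyte markers 3 were higher and 1, *MCAM*, was 2.02-fold lower (adjusted p = 1.09e-06). The 3 higher ones were *PDGFRB*, *NOTCH3* and *ANPEP*. They rose by 0.315, 0.305 and 0.36 in log2 signal (adjusted p = 0.00996, 0.0074 and 0.0106), and *NOTCH3* did not pass with quantile normalization (0.0644). *RGS5*, *ABCC9* and *KCNJ8* had log2 signals of at most 3.90 in either group mean and did not pass. *CSPG4*, with means of 4.52 in LOL and 4.72 in NOL, did not pass either (log2 difference -0.20, adjusted p = 0.0635). It was lower with median centring (0.0212) or with low signals left out (0.0285). The summed linear signal of the pericyte list was 154 to 178 in LOL and 171 to 178 in NOL, and without *MCAM* it was 129 to 153 in LOL and 120 to 130.0 in NOL. Of 11 endothelial markers 3 were higher and none lower. *CLDN5* was 3.82-fold higher (adjusted p = 4.78e-06), *TEK* rose by 0.42 and *ESAM* by 0.40 in log2 signal (adjusted p = 0.0131 and 0.0133), and *PECAM1*, *CDH5*, *KDR* and *EMCN* stayed under a mean log2 signal of 3 in both groups and did not pass. The endothelial sum was 147 to 163 in LOL and 88.8 to 104 in NOL. Most of that gap was *CLDN5*, and without it the sum was 79.7 to 96.4 in LOL and 75.8 to 81.5 in NOL.

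Of 9 theca markers 1 was higher and 3 were lower. *INSL3* was 2.05-fold higher (adjusted p = 1.17e-05, and 0.97 on the log2 scale under median centring), while *CYP17A1*, the androgen-making enzyme that defines theca, had a log2 difference of -0.03 and a mean signal of 3.35 in LOL and 3.38 in NOL. *LHCGR*, *NR5A1* and *ALDH1A1* were the lower ones, at -0.82, -0.685 and -0.68 in log2 signal, with adjusted p of 0.0014, 1.97e-05 and 0.014. The sum of this list was 540 to 558 in LOL and 386 to 459 in NOL, and without *INSL3* it was lower in LOL, 188 to 200.5 against 242 to 265 in NOL. The brightest gene left was *NR5A1*, with means of 6.225 in LOL and 6.91 in NOL. *PTCH1*, *GLI1*, *HHIP* and *TCF21* did not pass. The paper counts *LHCGR* among the FSH signaling genes of granulosa cells, so the lower sum is not a measure of theca cells alone. Fibroblast markers rose in 9 of 11 with none called, and their sum was 7817 to 8165 in LOL and 5960 to 6575 in NOL. Leukocyte markers rose in 2 of 9, with a sum of 99.5 to 121 in LOL and 90.1 to 97.9 in NOL. Oocyte markers rose in 3 of 10, with 65.3 to 77.8 in LOL and 60.6 to 63.2 in NOL. Of all clusters 20.5% were higher. Only 2 of the leukocyte markers and none of the oocyte markers had a mean log2 signal of 4 or more. Below 4 the median log2 difference over the whole array was 0.092, and 13.6% of clusters were higher at the adjusted p. Of 12 granulosa markers 9 were lower, and their sum was 6376 to 6814 in LOL and 10651 to 10984 in NOL. *CYP19A1* (aromatase), *FOXL2*, *INHA*, *FSHR* and *INHBB* were 7.44-fold, 3.51-fold, 3.38-fold, 3.31-fold and 2.71-fold lower, and *HSD17B1* was 3.83-fold higher, with adjusted p from 6.24e-09 to 2.84e-06. The part of other cells in the rise of the contractile genes was not tested.

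The SD between arrays was smaller in LOL than in NOL in 8 of the 9 contractile genes. This difference was not tested. The share over all clusters was not counted, so it is not shown to be particular to these genes. It was farthest apart in *TAGLN*, with 0.062 in LOL and 0.35 in NOL, and in *CNN1*, with 0.049 in LOL and 0.22 in NOL. *TPM1* was the exception, with 0.112 in LOL and 0.109 in NOL. NOL 4 lay above its group mean in 8 of the 9 genes and was the highest NOL array in 5. Averaged over the 9 genes it was 0.11 above the group mean, and NOL 2 was 0.068 below it. In the LOL group no array was more than 0.019 from the group mean on average. LOL 3 was 0.019 below it, and over all clusters its median (4.18) and upper quartile (5.97) differed from those of the other LOL arrays (4.12 to 4.13 and 6.03 to 6.04). Without LOL 3, *TAGLN* differed by 3.17 and *MYL9* by 1.07 on the log2 scale.

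**Figure D4:**
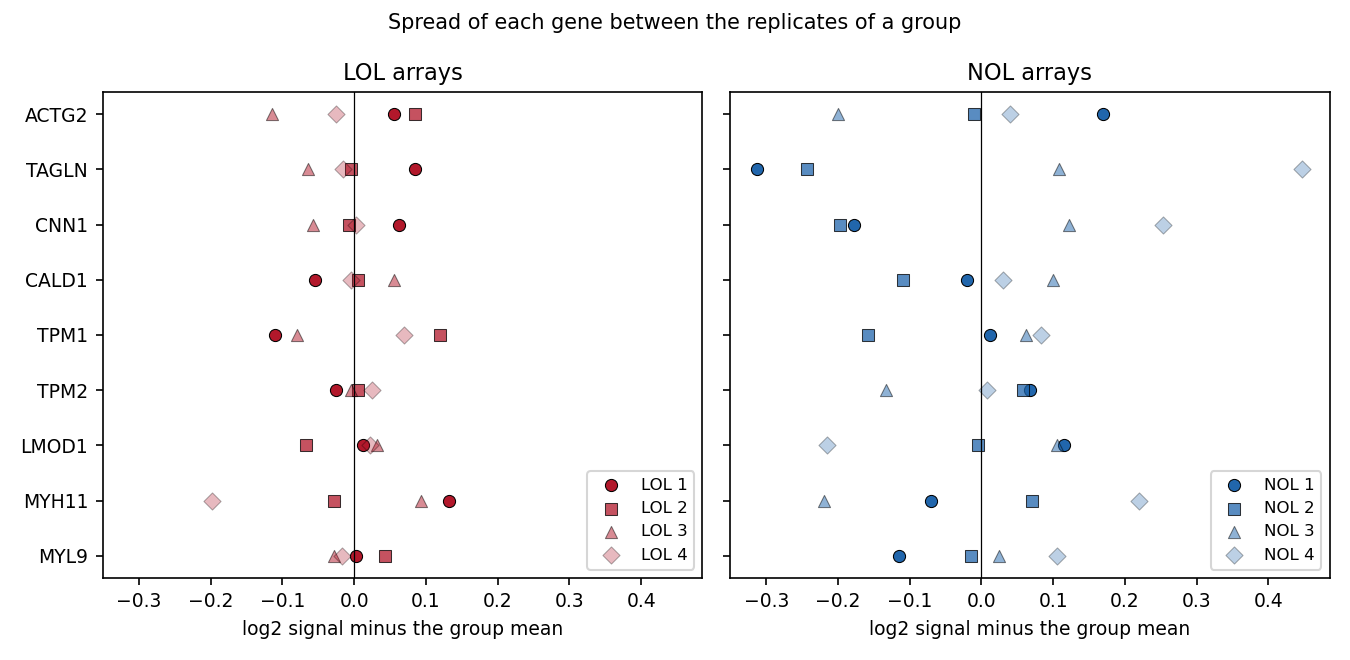
Log2 signal of each contractile gene on each array minus its group mean (horizontal axis), for LOL (left) and NOL (right). The LOL arrays lie within 0.20 of their group mean in every gene, whereas *TAGLN* in NOL runs from -0.31 in NOL 1 to 0.45 in NOL 4.

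The clusters of other genes whose profile over the 8 arrays was most like the mean profile of the contractile genes were those of *CHKA*, *FAM13A*, *CRABP2*, *CTDSPL2* and *CLIC1*. Each profile was centred on its own mean, and likeness was the root mean square distance in log2 signal, which was 0.056 to 0.061 for these 5. Among the contractile genes, *MYL9* was nearest to their mean profile, at 0.12, and *TAGLN* farthest, at 0.95. The 5 genes were 2.36-fold to 2.60-fold higher at LOL. Such a rise, close to the mean of the contractile genes (1.29 on the log2 scale), follows from the way they were chosen.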

How the data were processed

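Total RNA of 4 LOL and 4 NOL samples was measured, 1 array per sample, and groups were taken from the oxygen level in the labels. The authors deposited log2 values made by RMA (robust multichip averaging, with no version in the sources used here), in which background correction, normalization between arrays and a summary over the probes of a cluster are done in turn. No further normalization or filter was applied. All 24415 clusters, with values from 0.08 to 12.42, were fitted with limma 3.58.1 in R 4.3.3 (2 groups, moderated variances, two-sided) and p-values were adjusted by Benjamini and Hochberg over all of them. A cluster was called at an adjusted p under 0.05 and a fold over 2, the thresholds of the study's methods. The fit was tested on simulated data. Arrays have no counting depth, and their number limits the precision.

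Names come from the platform annotation, with 18550 clusters of 1 symbol, 595 of several and 5270 of none. For a gene with several clusters the brightest was used. The text names all members, the genes of the pairs, called markers and, per list, up to 4 called genes with the largest change and 2 bright ones not called. Other genes were named after their values were seen. *CNN3* shares its cluster with another symbol, so its pair was not compared. Members and lists were chosen with earlier results of these data known. The alternatives were an unmoderated analysis of variance, quantile normalization, median centring, a filter on low signals, a replicate block, averaged clusters, a test of the fold itself and leaving out each array. The results of 1 further gene list are not reported here.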

Additional observations from a re-analysis of the deposited data

Results flagged for a closer look

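None of the contractile genes had an array apart from the other 3 of its group by Dixon's criterion. Among the other genes screened, 3 groups had 1. *SMAD4* read 10.34 in LOL 4, against 10.39 to 10.40 in the other LOL arrays. *CHKA* read 8.39 in LOL 1, against 8.23 to 8.25 in the others, and *CRABP2* read 9.87 in NOL 1, against 10.04 to 10.07. The criterion was applied to 110 groups of 4 arrays, and chance alone marks about 1 in 20. Not every gene named was screened. *CSRP1*, which was not, read 7.29 in NOL 1, against 7.56 to 7.61 in the other NOL arrays.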

How the results depend on the processing

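The count of contractile genes called was 5 in the fit reported and 4 with median centring and with limma's test of the fold against 2, and 5 without each array in turn. The count past the adjusted p of a difference from 0 was 8 under each alternative that keeps that test, and 8 without each array in turn. The test of the fold has another null, and over all clusters it called 277 higher and 213 lower, against 542 and 647 as reported. Samples with the same number did not deviate together (correlation over clusters -0.027 to 0.11), and with the replicate number as a block the counts were again 5 and 8. Median centring took the called genes of the SRF and myocardin factors to 0. It moved the median log2 difference of all clusters to -0.005, from 0.06 as deposited, and the calls to 477 higher and 783 lower. Quantile normalization took *MCAM* to -0.97. Median centring took the genes higher at the adjusted p to 6 of the 21 relatives, against 11. It took them to 8 of the sarcomere genes, against 13, and to 6 of the fibroblast markers, against 9. *TPM4* passed as deposited (adjusted p = 0.0373) but not with median centring (0.108) or without moderation (0.0667). None of the members, pair genes or genes named by the naming rule changed direction.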
